A study of Drosophila melanogaster with 6 samples.

Results

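AMP-activated protein kinase is a trimer of a catalytic alpha subunit, a scaffolding beta subunit and a nucleotide-sensing gamma subunit, and glycogenin primes the glycogen particle to which the beta subunit can bind. The genes described here are AMPKalpha, alc (alicorn, the beta subunit), SNF4Agamma (the gamma subunit, also called loechrig) and Gyg (glycogenin). Their members are the array spots that the platform annotation assigns to exactly 1 of these 4 genes, 5 spots of the 15744 on the array: 1 spot each for the 3 subunits and 2 spots, numbers 1804 and 2524, for Gyg. The genes were picked for their log2 ratios of mutant over wild type, which were already known from these arrays. Those ratios are therefore given as a description. Where a fit over all probes calls a spot, the call is counted beside the share of all probes called and supports nothing.

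The samples were whole Drosophila melanogaster embryos raised at 25°C. The mutants carried 1 mutant copy each of engrailed (En) and gooseberry-neuro (GsbN), genes of a homeodomain factor and of a Pax-family factor, and the controls were wild-type embryos of the Oregon strain. The labels name no alleles, stock background, embryo age or number of embryos per pool, so genotype, stock and stage cannot be told apart in this contrast. Amplified RNA (aRNA) made from total RNA of mutant and wild type was labelled and hybridised together on 6 two-colour arrays, as 3 biological replicates that each had 1 array with the mutant in Cy3 and 1 with it in Cy5.

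As background, the alpha subunit is activated by phosphorylation through the kinase LKB1 when cellular ATP falls. Binding of AMP or ADP to the CBS domains of gamma favours that state, and a carbohydrate-binding module of beta links the complex to glycogen. Active kinase restrains fat and glycogen synthesis and promotes fuel use. In the fly, AMPKalpha has been studied in embryos for its part in epithelial polarity and cell division, and loss of alc or SNF4Agamma is known for neurodegeneration in the adult. Glycogenin attaches the first glucose units to itself, which glycogen synthase then extends. Fly eggs carry a maternal store of glycogen that the embryo uses.

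The spots of the 3 kinase subunits gave clear signal in both genotypes. AMPKalpha, SNF4Agamma and alc were at 2 or more times their local background in both channels on all 6 arrays. Gyg spot 2524 was too, although at only 2.08 to 4.94 times background in the mutants. Gyg spot 1804 was above it on 6 arrays in wild type and 5 in the mutants, where it lay between 1.84 and 4.86 times background. Of the 14628 tested probes, between 39.8% and 64.4% per array exceeded that level for mutant RNA and between 38.5% and 64.1% for wild-type RNA. Pearson's r of the log2 ratios across probes was 0.87 to 0.95 within dye-swapped pairs and 0.58 to 0.79 between replicates. The arrays of replicate 3 had the fewest spots bright in both channels, 1170 and 1316, against 2217 to 3077 on the other arrays. The engrailed and gooseberry-neuro genes were not analysed here.

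The catalytic subunit was slightly higher in the mutants. AMPKalpha had log2 ratios of 0.54 and 0.55 on the arrays of replicate 1, 0.36 and 0.52 on those of replicate 2, and 0.30 and 0.28 on those of replicate 3, with the mutant in Cy3 first. All 6 arrays were above 0, and replicate 3 was the lowest. The mean was 0.42 ± 0.13 (SD, n = 3), which is 1.34-fold higher. With each array centred on its median in place of loess it was 0.44 ± 0.02, so the spread over replicates depended on that step. Among the tested probes 89.3% had a lower mean ratio.

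The deposited volumes (pixel level times square mm, before any correction) show the same direction for AMPKalpha. On all 6 arrays Cy3 had the higher median volume, for example 3.752 against 1.88 in replicate 3 with the mutant in Cy3. Uncorrected volumes therefore favour the genotype in Cy3, here and for the other spots below. In replicate 1 the mutant read 26.6 and wild type 16.8 with the mutant in Cy3, and 25.4 against 20.3 with the dyes exchanged. In replicate 2 the pairs were 18.4 against 12.8 and 15.4 against 14.9. In replicate 3 they were 11 against 4.76 and 8.07 against 5.80. The mutant volume was the higher of each pair on all 6 arrays, with the smallest gap in replicate 2 with the mutant in Cy5, where the local background was 2.39 in the mutant and 3.98 in the wild-type channel.

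Neighbouring spots moved a little with AMPKalpha on some arrays. The median log2 ratio of its 5 adjacent gene spots was 0.21, 0.30 and 0.21 on the arrays with the mutant in Cy5, and 0.00, -0.09 and 0.07 on the others. With loess fitted inside each printed block, which follows such local shifts, the AMPKalpha ratio was 0.36. The part of print position in the AMPKalpha ratio was not tested.

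The gamma subunit was lower in the mutants. SNF4Agamma had log2 ratios of -0.45 and -0.51 in replicate 1, -1.01 and -0.65 in replicate 2, and -0.95 and -0.95 in replicate 3. All 6 arrays were below 0, and both arrays of replicate 1 were nearest to it. The mean was -0.75 ± 0.25 (SD, n = 3), or 1.69-fold lower, and 8.93% of the tested probes had a lower mean ratio. In these bulk embryos, fewer cells that express a gene and less RNA per cell cannot be told apart.

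The volumes of SNF4Agamma ran from 4.2 to 14.8 in the mutants and from 7.82 to 19.2 in wild type. These ranges overlap because arrays differ in brightness, but on each array the wild-type volume was the higher. As a plain difference of uncorrected volumes, the smallest gap was in replicate 3 with the mutant in Cy3, at 6.44 against 7.97. After correction the log2 ratio of that array was -0.95, lower than on either array of replicate 1. Its 8 neighbouring spots had a median log2 ratio between -0.03 and 0.29 on the 6 arrays. None of those medians was as low as the ratio of the spot itself. The reference gene table lists 16 transcripts for SNF4Agamma, and the genes cDIP, CG5810 and Snmp1 lie within or across its locus. In that table CG3719 overlaps AMPKalpha and Hydr1 overlaps alc. Which transcripts the spots of the kinase subunits read is not known here.

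The beta subunit differed between replicates. The log2 ratio of alc was 0.26 and 0.11 in replicate 1, -0.07 and -0.23 in replicate 2, and -0.96 and -0.85 in replicate 3. The replicates did not overlap: replicate 1 was above 0, replicate 2 just below it, and replicate 3 far below it. The mean was -0.29 ± 0.56 (SD, n = 3), and without replicate 3 it was 0.02. The SD was larger than that of 93.6% of the tested probes, whose median SD was 0.18. However, alc was also brighter than 93.3% of them, and the offset shrinks the ratios of dim probes. Its SD was not set against probes of like brightness.

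Exchanging the dyes changed alc little. Its dye-swapped arrays differed by 0.11 to 0.16, while its replicates spanned 1.09 on the log2 scale. The median ratio of its 8 neighbours lay between -0.09 and 0.08 on all 6 arrays, replicate 3 included. The deposited volumes in replicate 3 were 13.4 in the mutant against 15.4 in wild type, and 12 against 16.6 with the dyes exchanged. With each array centred on its median in place of loess, the mean over replicates was -0.18 and the SD fell to 0.36.

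**Figure D1:**
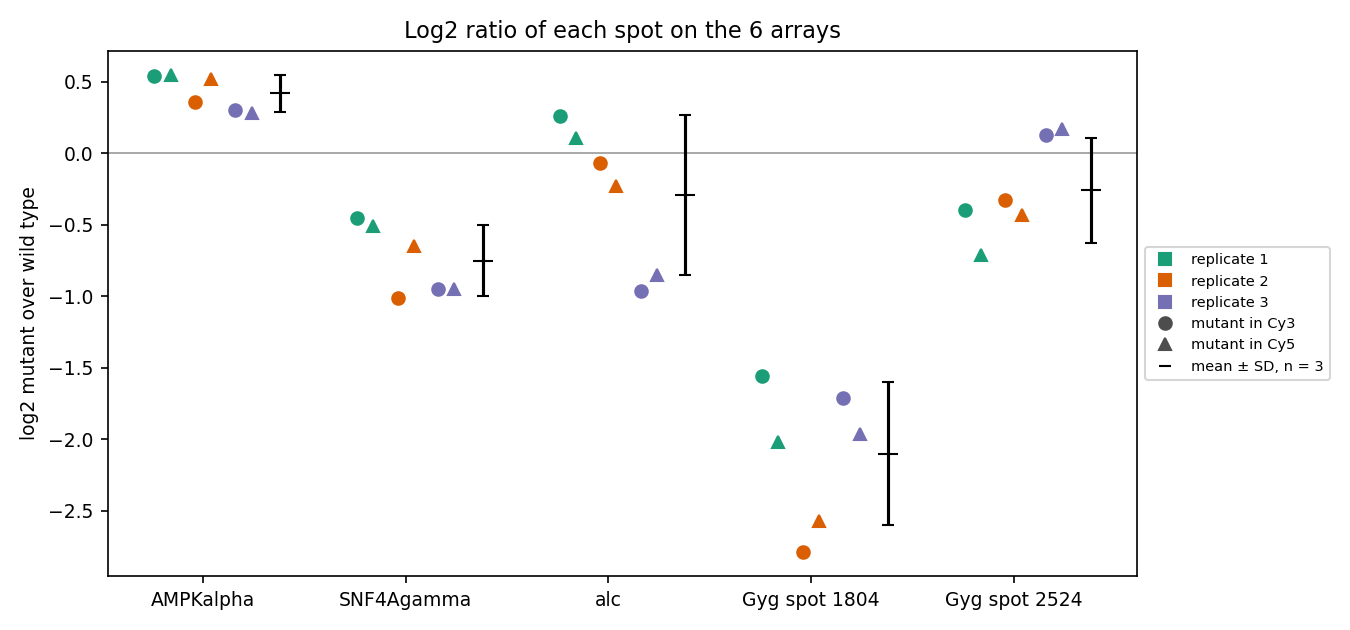
Log2 ratio of mutant over wild type (vertical axis) for each of the 5 spots (horizontal axis) on 6 arrays, coloured by biological replicate, with the mutant's dye as the symbol and the mean ± SD over 3 replicates in black. AMPKalpha lies above 0 and SNF4Agamma and Gyg spot 1804 below 0 on all arrays, while alc and Gyg spot 2524 have replicates on either side of 0.

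The subunits differed in mean ratio, but each was highest in replicate 1 and lowest in replicate 3 after loess. How many of all tested probes have this order was not counted, so it is not read as a trait of the subunits. Among the other listed genes above background on all 6 arrays, CG9485, Mccc2 and Mlc1 had the same order. Stlk, Gfat1, mAcon1, Idh3b, up and Prm did not. In replicates 1, 2 and 3 AMPKalpha was at 0.55, 0.44 and 0.29 and alc at 0.18, -0.15 and -0.91. SNF4Agamma was at -0.48, -0.83 and -0.95. The difference of log2 ratios, AMPKalpha minus SNF4Agamma, was 1.02, 1.27 and 1.24 in replicates 1, 2 and 3, and between 0.98 and 1.37 on the 6 arrays. Its mean of 1.18 ± 0.14 (SD, n = 3) is a 2.26-fold difference in relative change. The range of this difference over replicates (0.25) was smaller than that of SNF4Agamma alone (0.47) and equal to that of AMPKalpha alone (0.25). AMPKalpha was also above alc on all 6 arrays, by 0.36, 0.59 and 1.20 in the 3 replicates (mean 0.72 ± 0.43). These differences come from the ratios that the genes were selected on, so they carry no test.

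The position of alc relative to its partners changed between replicates. The difference alc minus SNF4Agamma was 0.66 and 0.68 in replicates 1 and 2, but 0.05 in replicate 3 (mean 0.46 ± 0.36). By replicate means alc was nearer to AMPKalpha in replicates 1 and 2, at 0.36 and 0.59, but on the replicate 2 array with the mutant in Cy5 it was nearer to SNF4Agamma (0.42) than to AMPKalpha (0.75). In replicate 3 it lay beside SNF4Agamma, with array values of -0.01 and 0.10.

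**Figure D2:**
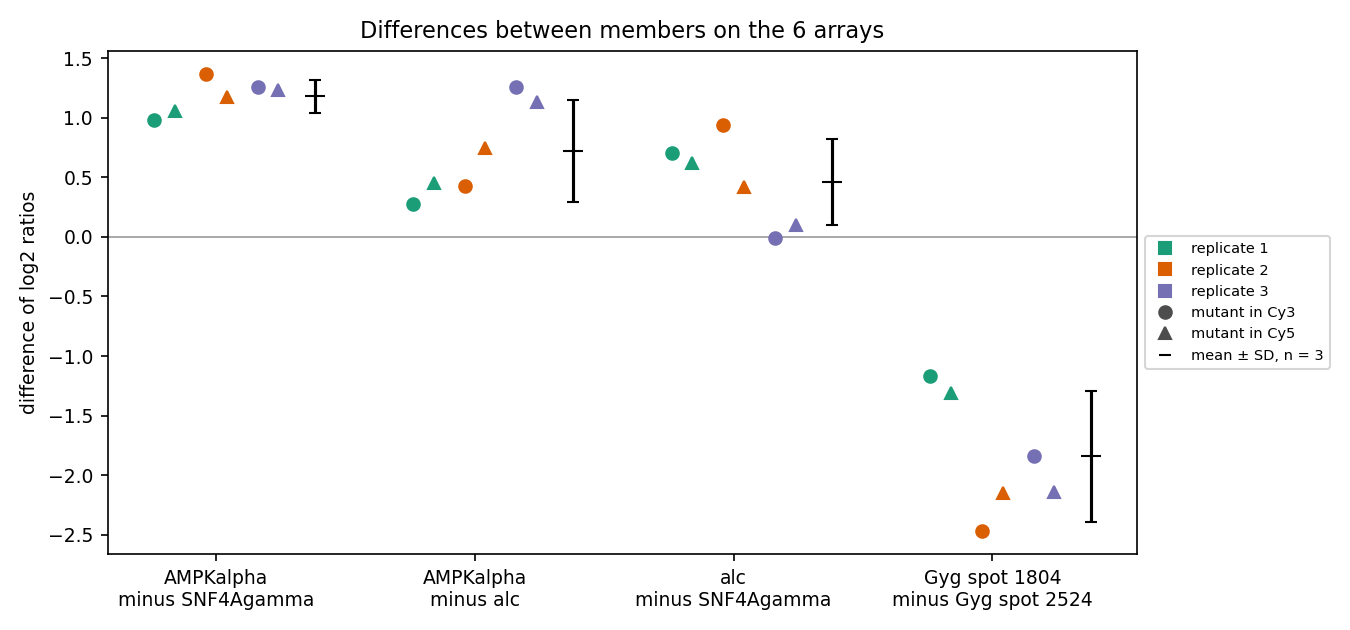
Differences of log2 ratios (vertical axis) between kinase subunits and between the Gyg spots (horizontal axis) on 6 arrays, with replicate as colour, the mutant's dye as symbol and the mean ± SD over 3 replicates in black. AMPKalpha minus SNF4Agamma stays between 0.98 and 1.37, whereas both differences that involve alc set replicate 3 apart from the others.

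Glycogenin was strongly lower on 1 of its spots. Gyg spot 1804 had log2 ratios of -1.56 and -2.02 in replicate 1, -2.79 and -2.57 in replicate 2, and -1.71 and -1.96 in replicate 3. All 6 arrays were far below 0, with replicate 2 lowest. The mean was -2.10 ± 0.50 (SD, n = 3), or 4.30-fold lower, and only 0.444% of the tested probes had a lower mean ratio. The offset added before logs pulls ratios of dim signals toward 0.

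The wild-type volumes of Gyg spot 1804 varied between replicates. Wild type read 34.4 and 43.4 in replicate 2, against 11.9 and 16.1 in replicate 1 and 8.56 and 10.1 in replicate 3. The mutants stayed between 2.20 and 5.66 on all arrays. The wild-type and mutant ranges therefore did not overlap, and replicate 2 combined the highest volumes of both genotypes. The median log2 ratio of the 8 neighbouring spots lay between -0.16 and 0.12.

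The other Gyg spot did not show this fall. Gyg spot 2524 had log2 ratios of -0.40 and -0.71 in replicate 1, -0.33 and -0.43 in replicate 2, and 0.13 and 0.17 in replicate 3. Replicate 3 was above 0 on both arrays and the others below it. The mean was -0.26 ± 0.37 (SD, n = 3).

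The Gyg spots differed in size in every replicate and in sign in replicate 3 alone. Spot 1804 minus spot 2524 was -1.24, -2.31 and -1.99 in the 3 replicates, and spot 1804 was the lower on all 6 arrays. The mean difference was -1.84 ± 0.55, or 3.59-fold. Volumes of spot 2524 ran from 2.23 to 5.26 in the mutants and from 1.56 to 7.01 in wild type, and these ranges overlap. In replicate 3, where the sign differed, its wild-type volumes were its lowest, 1.56 and 2.50, at only 2.87 and 2.42 times background. The highest local background of spot 2524 was 2.54, beside a volume of 5.26.

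Which transcripts these spots read is not known here. In the reference gene table (Release 6 assembly), Gyg and CG44245 both carry the older name CG9480, begin at the same position and overlap. Gyg has 6 transcripts in that table. The probe sequences were not used here, so neither spot can be placed on a transcript.

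**Figure D3:**
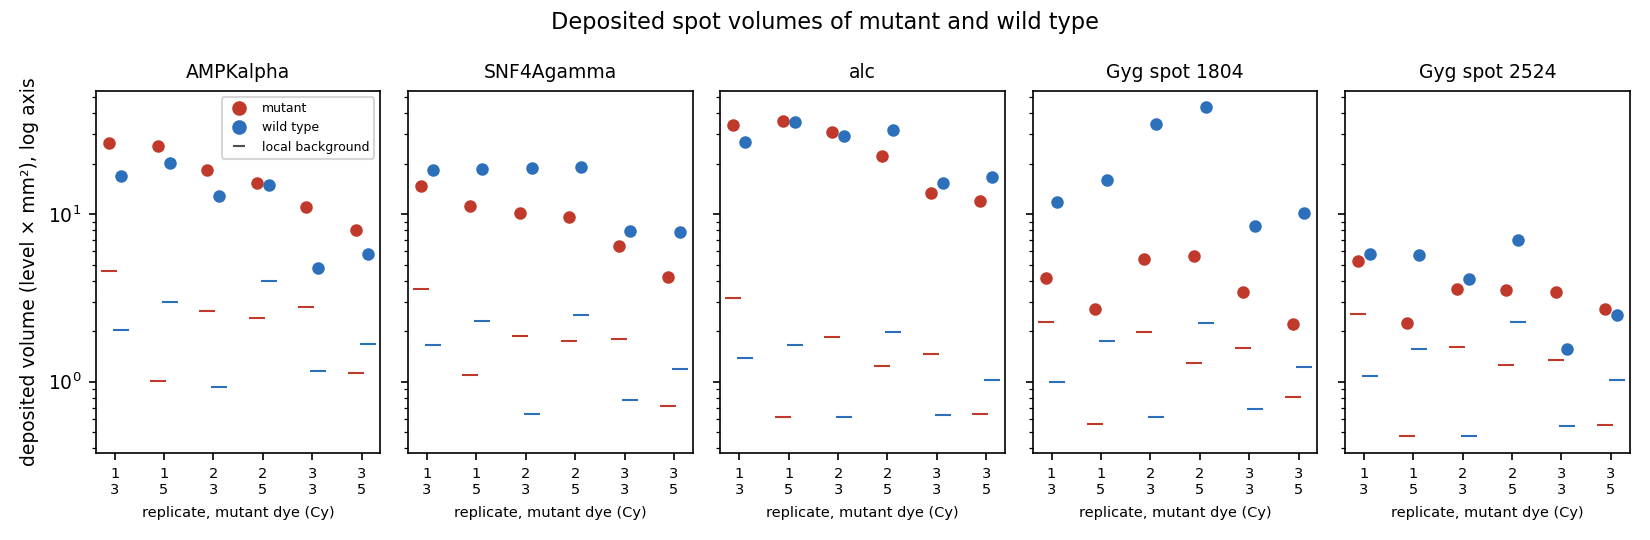
Deposited spot volume on a log axis (vertical, pixel level times square mm) of mutant (red) and wild type (blue) for each spot, with arrays ordered by replicate and the mutant's dye (Cy3 or Cy5) below, and local background as dashes. AMPKalpha has red above blue and SNF4Agamma and Gyg spot 1804 blue above red on every array, and Gyg spot 1804 peaks in wild type of replicate 2.

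Loess within arrays takes out the dye bias that follows intensity. The dye bias left at single spots, which the genotype ratio does not use, could be tested. It was measured per replicate as the log2 ratio with the mutant in Cy3 minus that with it in Cy5, divided by 2, and tested against 0 with limma over all 14628 probes. None of the 5 spots had a dye effect past a Benjamini-Hochberg adjusted p of 0.05, and 0 of them had an unadjusted p under 0.05; over all probes 3 passed (0.0205%) and 1196 had an unadjusted p under 0.05. The mean dye effects were -0.03 ± 0.05 for AMPKalpha (adjusted p = 0.913), -0.05 ± 0.11 for SNF4Agamma (adjusted p = 0.831) and 0.03 ± 0.08 for alc (adjusted p = 0.886). For Gyg they were 0.08 ± 0.17 on spot 1804 (adjusted p = 0.748) and 0.06 ± 0.09 on spot 2524 (adjusted p = 0.777). The largest gap within a dye swap was 0.46, for Gyg spot 1804 in replicate 1, and the next was 0.36, for SNF4Agamma in replicate 2.

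A larger change in either direction was seen for 26.7% of the tested probes beside AMPKalpha, 12.5% beside SNF4Agamma, 35.8% beside alc, 0.533% beside Gyg spot 1804 and 38.8% beside Gyg spot 2524. The 5 spots were brighter than 60.4% to 93.3% of those probes, and the offset pulls the ratios of dim probes toward 0. These shares, and the shares of lower ratios given above, were not limited to probes of like brightness. With a Benjamini-Hochberg adjusted p under 0.05 in limma over all probes, 1 of the 5 spots was called higher (AMPKalpha), where 7.21% of all tested probes were. The same fit called 2 spots lower (SNF4Agamma and Gyg spot 1804), where 10.5% of the probes were. The genes were selected on this contrast, so nothing is read from these counts. The median log2 ratio of the 5 spots was -0.29, against 0.01 over all tested probes.

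Without replicate 2 the fit called 0 of the 14628 probes, while 2871 had an unadjusted p under 0.05. The ratios themselves were then 0.42 for AMPKalpha, -0.71 for SNF4Agamma and -1.81 for Gyg spot 1804. AMPKalpha was also not called without replicate 1, where its ratio was 0.36.

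**Figure D4:**
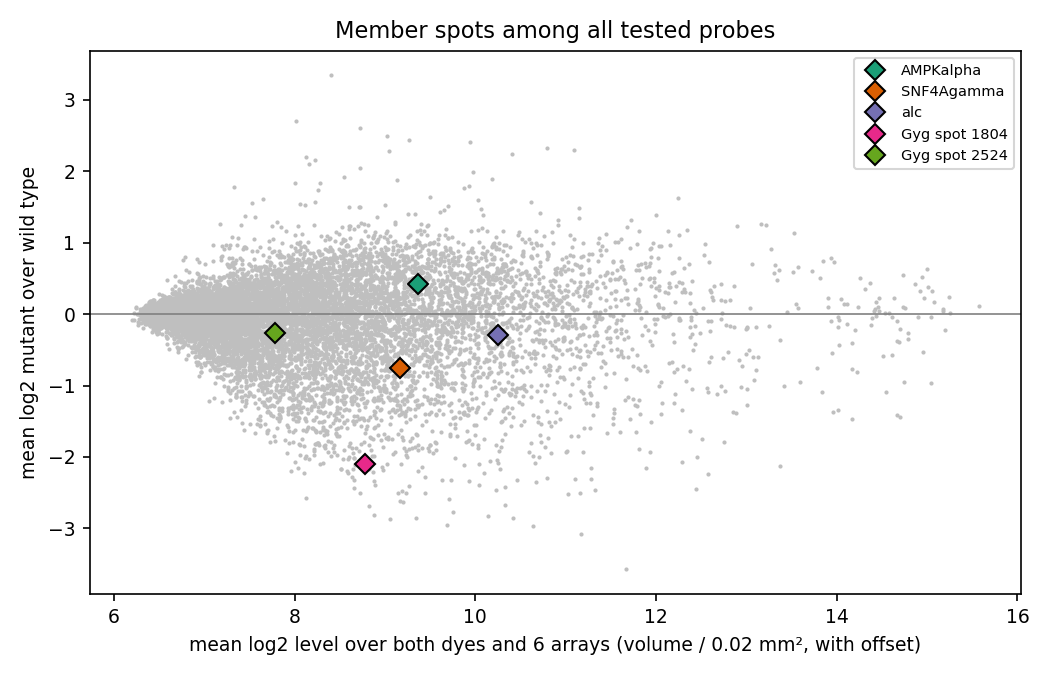
Mean log2 ratio of mutant over wild type (vertical axis) against mean log2 level (horizontal axis) for all tested probes in grey, with the 5 spots as coloured diamonds. AMPKalpha and SNF4Agamma lie inside the cloud above and below 0, alc is the brightest of the 5 spots, and Gyg spot 1804 at -2.10 sits at the lower edge.

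Other genes of the same processes were sparse, because the annotation names 63 genes in all. Of 41 listed genes up- or downstream of the kinase only Stlk was measured, a Ste20-like kinase gene related to the STRAD partners of LKB1. Stlk was at -0.53, -0.25 and -0.41 in replicates 1, 2 and 3, lower on all 6 arrays, with a mean of -0.40 ± 0.14 (SD, n = 3, adjusted p = 0.0563 in limma). It did not pass the threshold. Over 16 other settings its adjusted p ranged from 0.0164 to 0.248, and it passed in 2.

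Of 38 listed genes of glycogen and sugar metabolism, 3 were measured and 2 passed as lower, where 10.5% of all probes did: Gyg, itself picked for this ratio, and Gfat1, which makes glucosamine 6-phosphate from fructose 6-phosphate (-1.16 ± 0.46, adjusted p = 0.0233). Without replicate 2 Gfat1 did not pass; of 16 other settings it passed 12, and its adjusted p lay between 0.000899 and 0.301. Gyg is counted here by spot 1804, which is the brighter through its wild-type signal; spot 2524 was not called here or in any of 16 other settings. The third, CG9485, encodes the glycogen debranching enzyme, which frees glucose at the branch points of the particle that glycogenin starts. CG9485 had log2 ratios of -0.15, -0.33 and -0.71 in replicates 1, 2 and 3, and all 6 arrays were below 0, between -0.77 and -0.13. Its mean of -0.40 ± 0.28 (adjusted p = 0.122) did not pass, and it passed in 0 of 16 other settings, where the adjusted p lay between 0.062 and 0.393.

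Of 32 listed genes of mitochondrial fuel oxidation 3 were measured, and none passed. The aconitase gene mAcon1 was at -0.64 ± 0.33 (adjusted p = 0.0507) and passed in 7 of 16 other settings. Idh3b, a subunit of isocitrate dehydrogenase, was at 0.18 ± 0.38 (adjusted p = 0.564). Mccc2, a subunit of methylcrotonoyl-CoA carboxylase in leucine breakdown, was at 0.54 ± 0.44 (adjusted p = 0.125); it passed in 2 other settings, without replicate 3 and with the replicate block, and its adjusted p over all 16 was 0.0184 to 0.465. Mccc2 was higher on all 6 arrays and mAcon1 lower on all 6, while Idh3b was split at 3 and 3.

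Likeness of pattern was measured as the root mean square distance between the log2 ratios of 2 spots over the 6 arrays, among 44 other annotated genes above background in at least 1 channel on at least 4 arrays. Nearest to AMPKalpha were RpLP0-like (0.21), FucTC (0.22) and NHP2 (0.22). FucTC entered the comparison through its mutant channel, which exceeded background on 4 arrays, against 1 for wild type. Nearest to SNF4Agamma were mAcon1 (0.23), the G protein-coupled receptor kinase gene Gprk1 (0.33) and vsg (0.35). The nearest gene to alc was CG9485 (0.30), followed by RpL15 (0.33) and Herc4 (0.39). Genes chosen by this distance share the pattern of the spot by construction, so their directions and replicate order are not read further.

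By this distance, which grows with the size of a ratio, Gyg spot 1804 had no close neighbour. Among the tested probes 0.533% had a larger change, but that share was not taken over the 44 genes compared. Whether other genes share its pattern at a smaller size was not tested. The nearest genes to Gyg spot 1804 were Parp1 (0.81), the translation factor gene eIF4B (0.85) and Gfat1 (0.98), at distances larger than those of the other spots. Parp1 and eIF4B had mean log2 ratios of -1.96 and -2.52, so the genes compared did include falls of like size. Nearest to Gyg spot 2524 were Prp4k (0.19), Dscam1 (0.19) and su(f) (0.20). Dscam1 was above background on 2 arrays in the mutants and 4 in wild type.

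Muscle transcripts also differed between replicates. Of 33 listed markers of other tissues 10 were measured, and none passed the threshold with replicate means; the 5 measured Y-linked genes were never above background. The neuronal genes Ace and Snap25 were above background on 0 arrays in the mutants and 1 in wild type each. The muscle genes up, Mlc1 and Prm were above it on all 6 arrays in both genotypes, and their summed background-subtracted volume ran from 108 to 425 in the mutants and from 230 to 899 in wild type. Mlc1 was at 0.01, -0.98 and -1.89 in replicates 1, 2 and 3, up at -0.33, -1.58 and -1.26, and Prm at -0.14, -0.71 and -0.55. The limma means were -1.06 ± 0.65 for up (adjusted p = 0.0578), -0.95 ± 0.95 for Mlc1 (adjusted p = 0.164) and -0.47 ± 0.29 for Prm (adjusted p = 0.0884). All 3 muscle genes passed with the replicate block on 6 arrays; of 16 other settings up passed 6 (adjusted p 0.00534 to 0.334), Prm 3 (0.0202 to 0.394) and Mlc1 2 (0.0213 to 0.52). Replicate 1 was the nearest to 0 in all 3, as it was in SNF4Agamma but not in alc, which was nearest in replicate 2. Replicate 3 was the lowest in Mlc1, as it was in alc, SNF4Agamma and also AMPKalpha, whereas up and Prm were lowest in replicate 2. With loess within printed blocks the mean of Mlc1 was -0.38 ± 0.76. The part of tissue makeup or embryo age in the ratios of alc and SNF4Agamma was not tested.

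In the authors' deposited table AMPKalpha lay between 0.24 and 0.55 on the 6 arrays, SNF4Agamma between -1.07 and -0.43, and Gyg spot 1804 between -2.76 and -2.03. For alc the table holds 0.25 and 0.15 in replicate 1 and -0.97 and -0.88 in replicate 3. Gyg spot 2524 is at -1.09 and -0.44 on the arrays of replicate 1, a wider gap within a dye swap than the 0.32 found with normexp and loess.

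**Figure D5:**
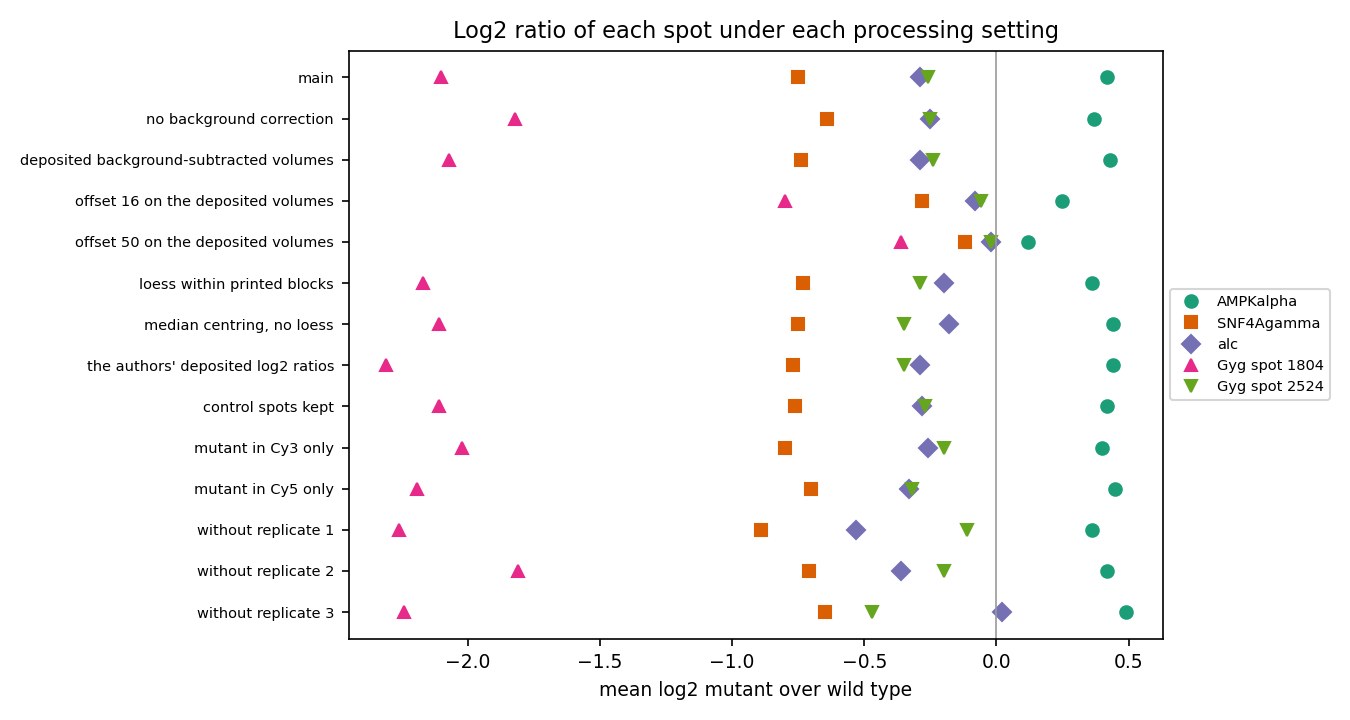
Mean log2 ratio of mutant over wild type (horizontal axis) of the 5 spots under each processing setting (vertical axis). AMPKalpha stays above 0 and SNF4Agamma and Gyg spot 1804 below 0 in every setting shown, with sizes that shrink toward 0 when an offset of 16 or 50 is added to the deposited volumes, and alc crosses 0 only without replicate 3.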

How the data were processed

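Each array was scanned for both dyes. The intensity values are ArrayVision spot volumes (pixel level times square mm) with local backgrounds, per the file headers, and the authors deposited background-subtracted volumes too. A table of 1 log2 ratio per spot and array was also deposited by the authors; the submitters' processing notes name limma, with no role. That table followed log2 Cy3 over Cy5 at r of 0.993 to 0.997 with the mutant in Cy3 and -0.992 to -0.987 with it in Cy5, over bright spots.

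Of 15744 spots, 1056 control or blank positions, recognised by layout, and 60 flagged spots were left out, leaving 14628 probes. Volumes were scaled with a presumed spot size of 0.02 square mm, corrected with normexp (offset 50) in limma 3.58.1 under R 4.3.3, and normalized by loess within arrays. Each ratio was expressed as mutant over wild type, the dye-swapped arrays of a replicate were averaged, and replicate means (n = 3) were tested against 0 with lmFit and eBayes, with Benjamini-Hochberg adjustment over all probes. Scripts were tested on simulated data. The number of arrays limits the precision.

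Gene names came from the platform annotation (1 gene for 67 spots, several for 1, none for 15676); the gene IDs of 62 spots matched the reference table. Named are all spots of the 4 genes, the 3 nearest genes of each spot and every measured list gene, by the brighter spot where such a gene has 2. The median ratios of adjacent spots were added after seeing the data. Members, lists and tests were chosen with earlier results of these data known. The labels call the replicates biological and do not say how embryos were pooled. Alternatives covered background, offset, normalization, dye orientation, probe filters, left-out replicates and a replicate block.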

Additional observations from a re-analysis of the deposited data

How the results depend on the processing

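Among 13 settings that can change a log2 ratio, AMPKalpha ranged from 0.12 to 0.49, SNF4Agamma from -0.89 to -0.12, alc from -0.53 to 0.02, Gyg spot 1804 from -2.31 to -0.36 and Gyg spot 2524 from -0.47 to -0.02. None of the 3 called spots changed direction. With 16 added to the deposited volumes, AMPKalpha was at 0.25, SNF4Agamma at -0.28 and Gyg spot 1804 at -0.80, and with 50 they were at 0.12, -0.12 and -0.36. AMPKalpha minus SNF4Agamma was then 0.53 and 0.25 (1.01 without background correction), AMPKalpha minus alc 0.14 with 50, and the Gyg spots differed by -0.74 and -0.33. An offset near or above the signal shrinks ratios by construction. With either offset 0 spots were called higher and 0 lower. AMPKalpha, the 1 spot called higher, was also not called (0 higher) with loess within printed blocks, in either dye orientation alone, or among probes detected on every array; leaving out 1 replicate gave 0 to 1 spots higher and 0 to 2 lower. The cause was not tested. AMPKalpha was called in 8 of 16 other settings, SNF4Agamma and Gyg spot 1804 in 13 each, and alc and Gyg spot 2524 in 0. All 6 arrays with the replicate block and a dye term called 1 spot higher and 2 lower, as with replicate means. Over all probes the count of 2592 calls (1055 higher, 1537 lower) was 1727 without background correction, 252 and 52 with offsets of 16 and 50, 3919 with the replicate block, and 0 to 3176 when 1 replicate was left out. Dye effects of the 5 spots passed in 0 of 6 other settings. Dim signal limits both Gyg spots, with mutant volumes down to 1.84 and 2.08 times background.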
